A study of Mus musculus with 34 samples.

Results

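The genes described here encode parts of the mitochondrial respiratory chain upstream of cytochrome c oxidase. They are the genes whose symbol starts with Nduf (NADH dehydrogenase, complex I) or Uqcr (ubiquinol-cytochrome c reductase, complex III), together with Sdha, Sdhb, Sdhc and Sdhd (succinate dehydrogenase, complex II), Cyc1 (cytochrome c1 of complex III) and Cycs (cytochrome c). A gene counted when at least 1 probe set of the array carried its symbol alone, and the probe set with the highest mean signal stood for it. This gave 58 of the 18193 genes with such a probe set. Of these, 57 were among the 13099 genes tested, which are those with a probe set in the upper 60% by mean signal. The remaining gene, Ndufb4, had signals of 1.1 to 56.3 over the 34 arrays and was not tested.

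Liver RNA was hybridised to Affymetrix Mouse Genome 430 2.0 arrays, 1 array per sample. Wild-type C57/B6 mice on the basal diet gave 5 arrays at week 20 and 4 at week 48, and mice of the strain labelled Pdgf-c Tg, which carry a platelet-derived growth factor C transgene, gave 5 arrays on the basal diet at each of these ages. Pdgf-c Tg mice fed 0.06% of the acyclic retinoid peretinoin after they were weaned (week 4) gave 5 arrays at week 20 and 5 at week 48, and the last 5 arrays were hepatic tumours of Pdgf-c Tg mice at week 48. The study used week 20 for fibrosis and week 48 for tumours. The promoter that drives the transgene, and whether tumours and livers came from the same mice, are not given in the sources used here. The labels number the samples of a group without saying that each is a separate mouse, so p-values measure the spread between these samples.

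The respiratory chain passes electrons from NADH (complex I) and succinate (complex II) through ubiquinone to complex III, and from there through cytochrome c to cytochrome c oxidase. Complexes I and III use this flow to pump protons across the inner membrane, and ATP synthase uses the gradient. Complex I has core subunits that carry the flavin and the iron-sulphur clusters, many accessory subunits, and assembly factors that are not part of the finished enzyme. Hepatocytes are rich in mitochondria, which in liver also serve fatty acid oxidation, the urea cycle and gluconeogenesis.

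The promoters of 48 of the 58 genes were found in the RefSeq promoter table (build GRCm38.p6), as windows from 250 bases before to 50 bases after the start. Of these 48 windows, 10 (20.8%) held the nuclear respiratory factor 1 motif (GCGC, any base, then TGCGC) on either strand, which 5.19% of the windows of all 27025 genes held. The ETS motif CCGGAAG, read by GABP, was in 20.8% against 9.93%. The YY1 motif AAGATGGCG was in 10.4% against 1.64%, the cAMP response element TGACGTCA in 8.33% against 2.03%, and the oestrogen-related receptor motif AAGGTCA in 8.33% against 5.38%. None of these motifs contains another. Among genes that fell in transgenic liver at week 20 the nuclear respiratory factor 1 motif was in 3 of 18 windows, and among those that did not pass in 6 of 29. The 250 bases before the start are shown for 4 genes, chosen after their values were seen. Sdha fell in transgenic liver at both ages, and Ndufb6 fell with the transgene and rose with peretinoin at week 20. Ndufs5 and Cycs fell at week 20 and, in transgenic liver, were higher at week 48 than at week 20. The week 48 call of Sdha and the peretinoin call of Ndufb6 were not stable, as described below. All 4 lie on the minus strand and are written in the direction of transcription, with motif matches in capitals. Each of the 4 holds a match, whereas the windows of other genes that fell, such as Ndufb3, Ndufc2 and Uqcr10, hold none of these motifs.
Sdha, chr13:74350241-74350490, minus strand, 3 nuclear respiratory factor 1 matches: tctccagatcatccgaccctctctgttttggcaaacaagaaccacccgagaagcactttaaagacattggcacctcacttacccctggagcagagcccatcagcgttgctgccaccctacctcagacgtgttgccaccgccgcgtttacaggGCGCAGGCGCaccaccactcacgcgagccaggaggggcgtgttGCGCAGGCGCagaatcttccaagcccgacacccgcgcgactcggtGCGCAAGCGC
Ndufs5, chr4:123718187-123718436, minus strand, 1 oestrogen-related receptor and 1 nuclear respiratory factor 1 match: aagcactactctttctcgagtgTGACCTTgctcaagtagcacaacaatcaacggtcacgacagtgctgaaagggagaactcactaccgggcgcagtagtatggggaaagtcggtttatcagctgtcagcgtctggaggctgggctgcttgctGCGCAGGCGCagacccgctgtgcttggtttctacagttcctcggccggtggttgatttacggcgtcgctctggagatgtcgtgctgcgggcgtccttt
Cycs, chr6:50566570-50566819, minus strand, 1 cAMP response element match: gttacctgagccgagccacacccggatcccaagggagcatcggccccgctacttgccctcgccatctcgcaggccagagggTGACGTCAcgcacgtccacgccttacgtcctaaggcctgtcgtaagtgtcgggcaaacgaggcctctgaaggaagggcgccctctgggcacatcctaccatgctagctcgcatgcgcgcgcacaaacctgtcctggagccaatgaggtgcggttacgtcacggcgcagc
Ndufb6, chr4:40279422-40279671, minus strand, 1 ETS match: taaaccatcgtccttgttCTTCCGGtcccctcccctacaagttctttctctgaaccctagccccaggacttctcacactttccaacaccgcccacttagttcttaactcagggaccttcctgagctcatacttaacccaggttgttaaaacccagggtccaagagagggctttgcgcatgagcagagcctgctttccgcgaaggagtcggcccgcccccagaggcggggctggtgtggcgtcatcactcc
A match is a stretch of letters and does not show that the factor binds there.

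The hepatocyte markers (Alb, Ttr, Apoa1, Cps1, Otc, Hnf4a, Tat, Pck1 and Ass1) averaged log2 signals of 13.35 to 14.23 on the 34 arrays, tumours included. On 6 arrays the mean of the skeletal muscle or pancreatic acinar markers lay more than 3 log2 units above the median array. These were wild-type replicate 4 at week 48, transgenic replicate 5 at week 20, transgenic replicate 4 at week 48, peretinoin replicates 3 and 5 at week 20 and peretinoin replicate 1 at week 48. Muscle is rich in respiratory chain RNA, so the count of called genes in each comparison is given with and without these arrays. In bulk tissue, fewer cells of a type and less RNA per cell cannot be told apart. The number of arrays limits the precision.

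The first comparison asked what the Pdgf-c transgene was accompanied by at week 20, the fibrotic stage. Of the 57 respiratory chain genes tested, 22 fell (38.6%), 1 rose and 34 did not pass (limma on log2 of signal plus 16, Benjamini-Hochberg adjusted p under 0.05 over all 13099 genes). Of all genes tested, 7.87% fell and 15.8% rose. The mean signals of the 57 genes ran from 162 (Ndufa4l2) to 34164 (Uqcrb), mostly far above the array medians of 71.5 to 95.7. The share of calls among genes of like brightness was not computed. The median log2 change of the 57 genes was -0.26, a change of -16.5% in level, beside 0.06 for all genes, and 52 of the 57 changes were below 0. In 17 of the 57 genes every transgenic array lay below every wild-type array, as in 4.65% of all genes. The falls were small, between 1.17-fold for Sdha and 1.52-fold for Ndufb3, and they spread over every complex. How many genes were called depended on the processing: quantile normalisation kept 8 of the 22 falls and ended 14, and the median change of the 57 genes became -0.081 beside -0.03 for all genes. Centring each array on its median kept all 22, while the all-gene median went to -0.07. Relative to all genes, the median of the 57 was -0.32 here and -0.06 with quantile normalisation. Centring shifts all genes of an array alike, so it cannot change this value and is no check of it.

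**Figure D1:**
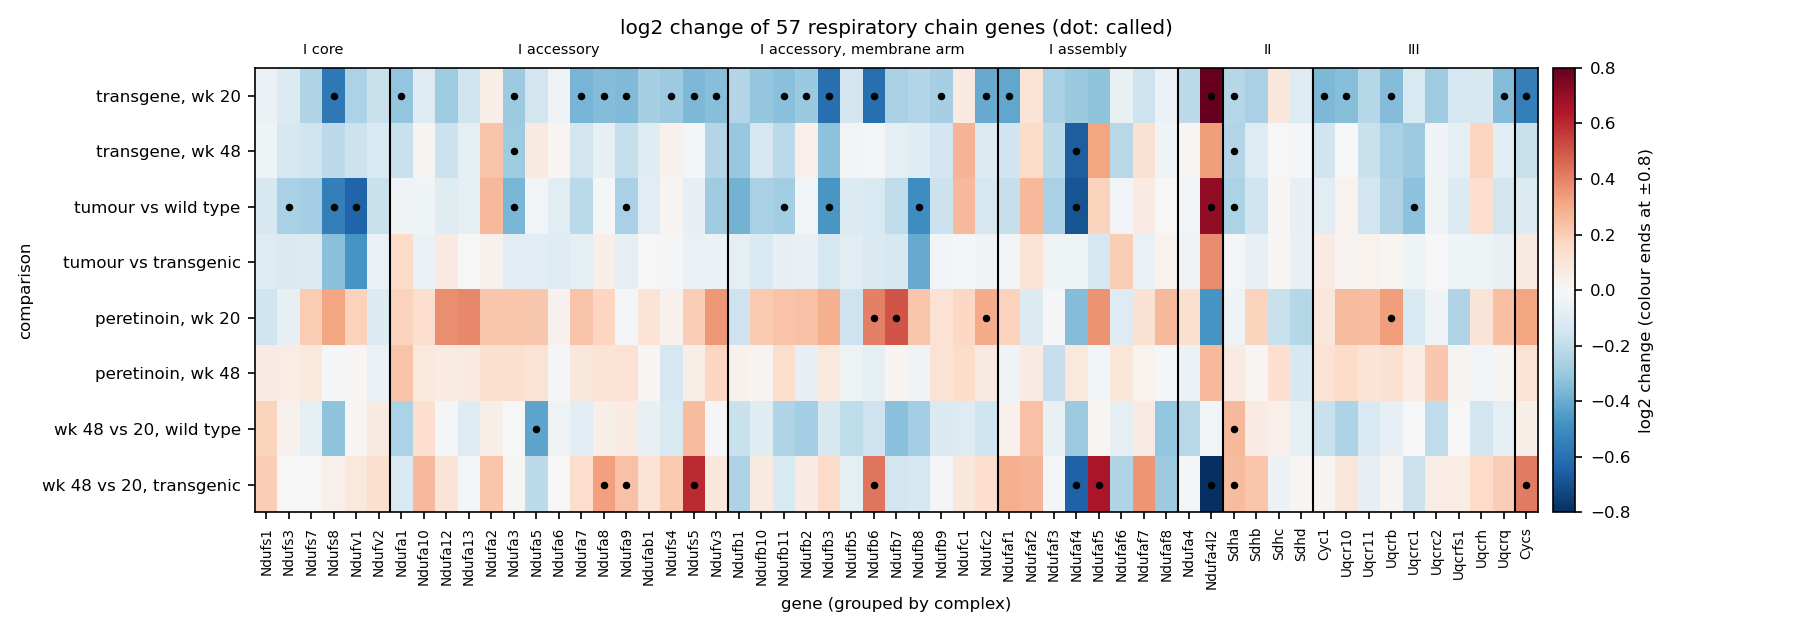
The colour gives the log2 change of each of the 57 respiratory chain genes (columns, ordered by complex; the unlabelled columns are Ndufa4 and Ndufa4l2 before complex II and Cycs at the right) in 8 comparisons (horizontal bands), and a dot marks a change with an adjusted p under 0.05. The top band, transgenic against wild-type liver at week 20, holds 23 dots, 22 of them on blue, while the bands for tumour against transgenic liver and for peretinoin at week 48 hold none.

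Of the 6 core subunits of complex I that were tested, only Ndufs8 fell at week 20, with the other 5 also below 0 but not past the threshold. Ndufs8, which carries iron-sulphur clusters near the quinone site, had signals of 16342, 15205, 18656, 21839 and 17819 in wild-type liver and 9519.6, 11116, 15136, 11291 and 13577 in transgenic liver. All 5 transgenic values lay below the lowest wild-type value, although transgenic replicate 3 came close to it. The log2 change was -0.57 ± 0.14 (SE; adjusted p = 0.00333), 1.49-fold lower. Ndufv1, which binds the flavin that takes electrons from NADH, changed by -0.25 ± 0.12 (adjusted p = 0.141), and Ndufs1, the largest iron-sulphur subunit, by -0.05 ± 0.10 (adjusted p = 0.772). Ndufs7 and Ndufv2, which also hold iron-sulphur clusters, changed by -0.24 ± 0.15 and -0.18 ± 0.09, neither past the threshold.

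The accessory subunits of the membrane arm, which line the proton-pumping part of complex I, fell in 6 of 12 cases (median -0.28). Ndufb6 had signals of 11244, 9119, 11867, 13946 and 11974 in wild-type liver and 8556, 6856, 6499, 8022 and 8209 in transgenic liver. The groups did not overlap, and the change was -0.60 ± 0.11 (adjusted p = 0.00015), 1.52-fold lower. Ndufc2 gave 13997, 13625, 16249, 16817 and 15663 in wild-type and 11906, 11434, 11151, 11299 and 11819.5 in transgenic liver. Its transgenic arrays were tightly grouped and all below the wild type (-0.40 ± 0.07, adjusted p = 0.000116). Ndufb3 gave 5397, 4354, 6509, 7884 and 7369.6 against 3903, 4108, 3639.7, 4043 and 4606. Here wild-type replicate 2 lay inside the transgenic range, and the change was -0.60 ± 0.13 (adjusted p = 0.0007). Ndufb11, Ndufb9 and Ndufb2 also fell, by 0.26 to 0.33 on the log2 scale.

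Of the 15 other accessory subunits of complex I, 8 fell (median -0.29). Ndufa9, which sits where the matrix and membrane arms join, had signals of 9269.8, 8910.0, 9278, 10458 and 10192 in wild-type and 6885, 8038, 8044, 7212 and 7431 in transgenic liver. The groups were apart, with a change of -0.35 ± 0.08 (adjusted p = 0.00107). Ndufa7, Ndufa8, Ndufa1, Ndufa3, Ndufs5, Ndufs4 and Ndufv3 fell by 0.29 to 0.37. Ndufab1, the mitochondrial acyl carrier protein, changed by -0.27 ± 0.11 (adjusted p = 0.083). Of the 8 assembly factors only Ndufaf1, which helps to build the membrane arm, fell. Its signals were 2279, 1908, 2082, 2065 and 2278 in wild-type and 1556, 1521, 1308, 1805 and 1778 in transgenic liver, without overlap (-0.42 ± 0.11, adjusted p = 0.00506).

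Complex II, which also works in the citrate cycle, fell in 1 of its 4 subunits. Sdha, the flavoprotein that oxidises succinate, gave 11718, 11968, 10656, 10553 and 13282 in wild-type liver and 9168, 10033, 10030.5, 10008 and 10225 in transgenic liver. The groups did not overlap, but the change was small (-0.23 ± 0.08, adjusted p = 0.0268). The call was lost without wild-type replicate 5 or transgenic replicate 1, with an adjusted p of up to 0.103. Sdhb, the iron-sulphur subunit, missed the threshold at -0.26 ± 0.10 (adjusted p = 0.0525), and the membrane anchors Sdhc and Sdhd changed by 0.09 ± 0.14 and -0.10 ± 0.09.

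In complex III, 4 of 9 genes fell and all 9 changes were below 0 (median -0.29). Cyc1, the haem subunit that hands electrons to cytochrome c, had signals of 14701, 13706, 15054, 17107 and 16022 in wild-type and 11536, 12461, 12599, 10871 and 12150.4 in transgenic liver. All transgenic values were lower than all wild-type values (-0.36 ± 0.09, adjusted p = 0.00528). The small subunits Uqcrb (-0.35 ± 0.09), Uqcrq (-0.35 ± 0.10) and Uqcr10 (-0.34 ± 0.11) fell as well. The large core proteins Uqcrc1 and Uqcrc2 and the Rieske iron-sulphur protein Uqcrfs1 did not pass, at -0.12 ± 0.11, -0.29 ± 0.12 and -0.14 ± 0.09.

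Cycs, the soluble carrier between complexes III and IV and a trigger of apoptosis once released from mitochondria, gave the smallest p of all 22 falls. Its signals were 23068, 21331, 23060.4, 26689.8 and 24518 in wild-type liver and 18016, 15056, 15942, 15149 and 16876 in transgenic liver. The lowest wild-type array stood well above the highest transgenic one, and the change was -0.55 ± 0.10 (adjusted p = 7.26e-05), 1.46-fold lower. Cycs, Ndufb6, Ndufb3, Ndufs8, Ndufa9, Ndufa7 and Ndufaf1 were called lower in each of the 11 other processing settings tried. For 31 genes with further probe sets, a separate limma fit over all probe sets kept gave the changes of those 54 probe sets. Their median was -0.28, and 49 had the same sign as the probe set used. Sdha was an exception, with 1 other probe set at 0.54 ± 0.31. These probe sets read the same arrays, so they are no independent support.

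**Figure D2:**
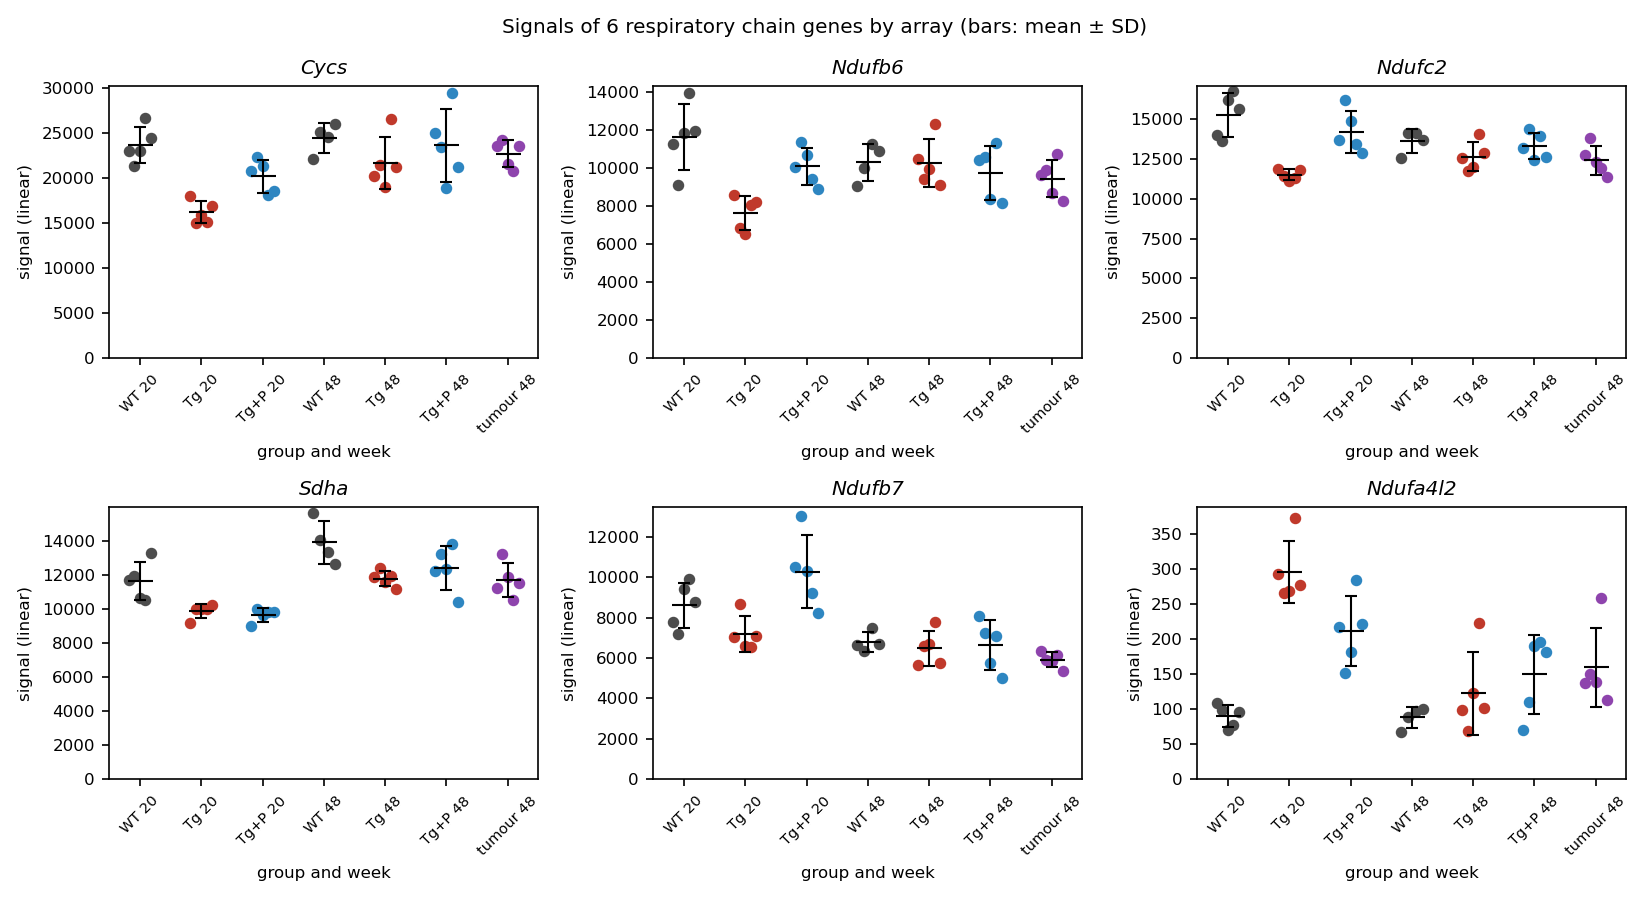
Each point is the MAS5 signal of 1 array (linear axis from 0) for 6 genes in the 7 groups of 4 or 5 arrays, with bars at the mean ± SD (WT wild type, Tg transgenic, P peretinoin, numbers weeks). For Cycs, Ndufb6, Ndufc2 and Sdha the week 20 transgenic points lie below all wild-type points of that age, and for Ndufa4l2 they lie above them.

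The 1 gene that rose at week 20 was Ndufa4l2. It is a hypoxia-inducible relative of Ndufa4, a subunit now assigned to cytochrome c oxidase, and is known to lower complex I activity. Its signals were 109.7, 99.6, 70.8, 77.6 and 95.6 in wild-type liver and 293, 266, 269, 373 and 278 in transgenic liver. Every transgenic value lay far above the highest wild-type value. The change was 1.55 ± 0.24 (adjusted p = 1.26e-05), 2.93-fold, whereas Ndufa4 changed by -0.21 ± 0.09 (adjusted p = 0.0786). Hif1a, the gene of the oxygen-regulated transcription factor subunit, changed by -0.11 ± 0.09 in the same comparison and did not pass. This is a value of RNA and not of protein, and the cause of the Ndufa4l2 rise was not tested.

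Markers of other cells moved in the same comparison. Stellate cells and myofibroblasts deposit the matrix in fibrosis, and 8 of their 10 markers rose (median 2.73). The mean log2 signal of these markers lay between 8.18 and 9.30 in the 5 wild-type arrays and between 11.30 and 11.65 in the transgenic arrays. Of 9 hepatocyte markers, Alb (-0.37), Apoa1 (-0.38) and Otc (-0.37) fell and 0 rose (median -0.21). Among lymphocyte markers 2 of 4 rose (median 1.10), and among macrophage and Kupffer cell markers 2 of 8 fell (median 0.04). One of 2 adipocyte markers rose and 1 of 2 erythroid markers fell, while 0 of the 4 endothelial markers were called. The Actb 3'/5' ratio, a sign of RNA quality, lay between 1.81 and 2.16 on wild-type arrays and between 1.62 and 1.74 on transgenic arrays, without overlap. The Gapdh 3'/5' ratio overlapped, at 0.75 to 0.85 on wild-type arrays and 0.74 to 0.78 on transgenic arrays. The part of these differences in the respiratory chain result was not tested. Without the array that held acinar transcripts, and with the 5 other such arrays left out as well, 24 genes fell and 1 rose.

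The mean deviation of the 57 genes from their own 34-array means shows how far single arrays set the result. At week 20 it was 0.02, -0.05, 0.13, 0.33 and 0.19 in the wild-type arrays and -0.11, -0.07, -0.08, -0.16 and -0.03 in the transgenic arrays. Wild-type replicate 4 stood highest and replicate 2 lay among the transgenic arrays. Without replicate 4 the count of called genes was 16, and without replicate 2 it was 29, against 23 with all arrays.

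**Figure D3:**
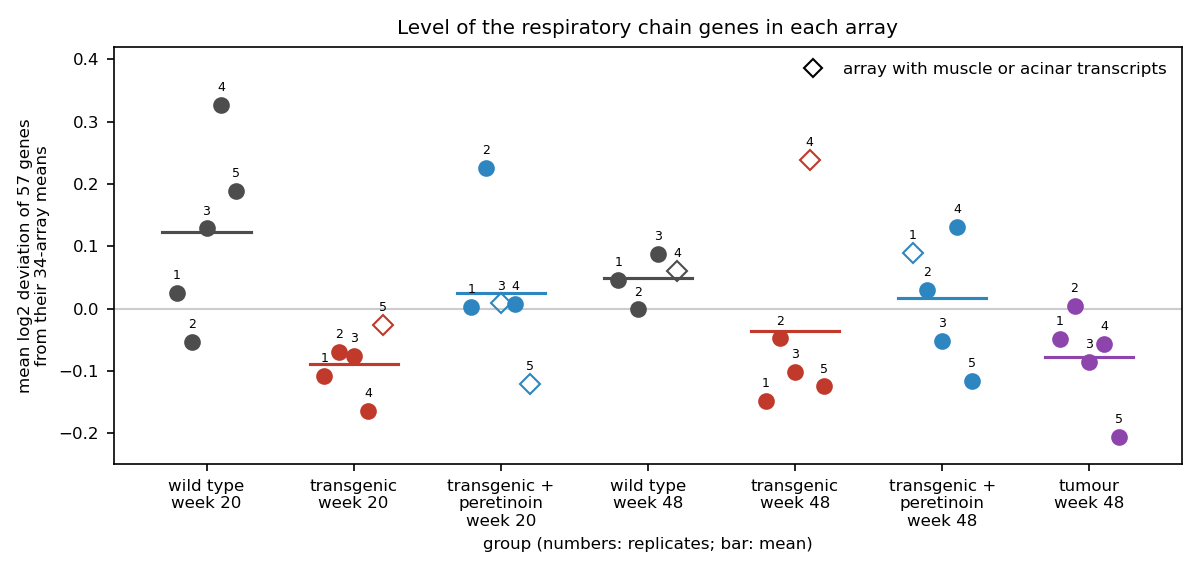
Each symbol is 1 array, with its replicate number, and its height is the mean log2 deviation of the 57 respiratory chain genes from their 34-array means; bars are group means and open diamonds are the 6 arrays with muscle or acinar transcripts. Transgenic arrays at week 20 lie between -0.16 and -0.03, and transgenic replicate 4 at week 48 stands at 0.24, above the other 4 of its group.

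**Figure D4:**
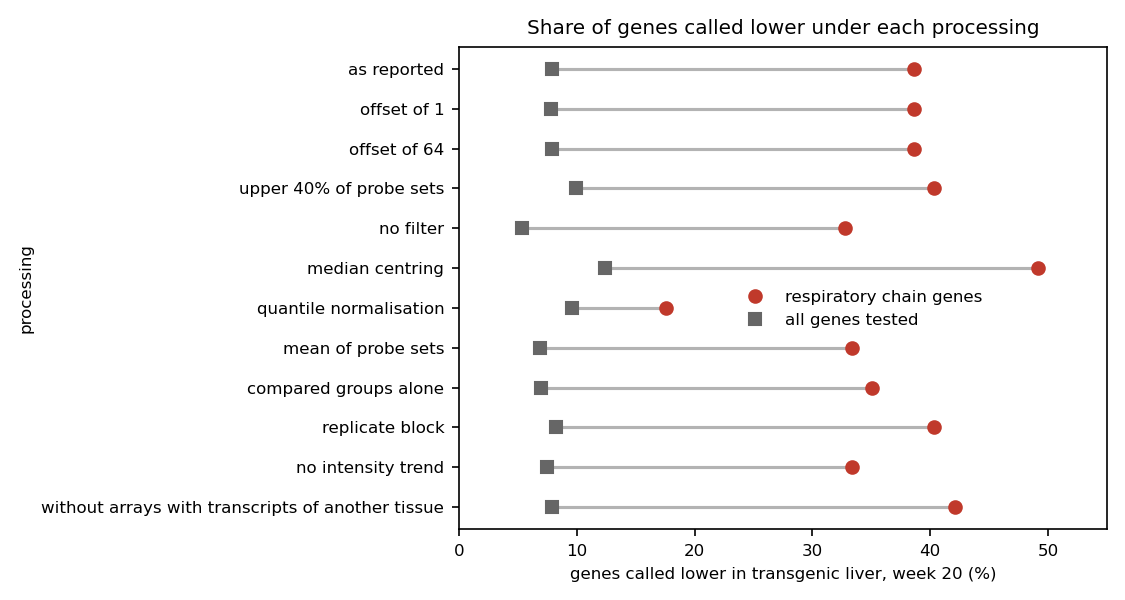
The share of the respiratory chain genes (circles) and of all genes tested (squares) that were called lower in transgenic liver at week 20, in percent, is shown for the processing used here and for 11 others. The share of respiratory chain genes lies to the right of the share of all genes in each. Quantile normalisation gives the smallest gap, with 10 of the 57 respiratory chain genes called lower where 9.63% of all genes were.

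The downstream part of oxidative phosphorylation was described from lists of other genes, beside 7.87% of all genes that fell at week 20 and 15.8% that rose. Of 16 ATP synthase genes, 11 fell at week 20 (median -0.29) and 0 rose, with the smallest p for Atp5k (-0.51 ± 0.11), Atp5h (-0.47 ± 0.11) and Atp5o (-0.42 ± 0.10). Of 14 genes of cytochrome c oxidase (complex IV), 5 fell (median -0.16), namely Cox5a (-0.40), Cox6b1 (-0.33), Cox5b, Cox6a1 and Cox7a2. Of 31 genes for assembly of other complexes and for ubiquinone synthesis, 4 fell, among them Cox15, which makes haem A (-0.57 ± 0.13), Timmdc1 (-0.48 ± 0.15) and Tmem126b (-0.53 ± 0.17), both complex I assembly factors.

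Among other mitochondrial genes some fell and some rose at week 20, where 7.87% of all genes fell and 15.8% rose. Of 16 citrate cycle genes, Pdhb (-0.46), Dld (-0.34) and Sucla2 (-0.27) fell, while Idh2 (0.79) and Ogdh (0.44) rose. Of 18 genes of the outer membrane, import and mitochondrial shape, 3 fell (Vdac3, Chchd3 and Timm23) and Opa1, a fusion protein of the inner membrane, rose by 0.45 ± 0.13. Of 18 regulators of mitochondrial genes, Ppargc1a, a coactivator of mitochondrial biogenesis, rose by 1.64 ± 0.43 (adjusted p = 0.00555) and Myc by 1.52 ± 0.51. Esrrg, a nuclear receptor of the oestrogen-related family, fell (-1.41 ± 0.51), and Nrf1 and Tfam were at 0.0049 ± 0.13 and -0.11 ± 0.10.

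**Figure D5:**
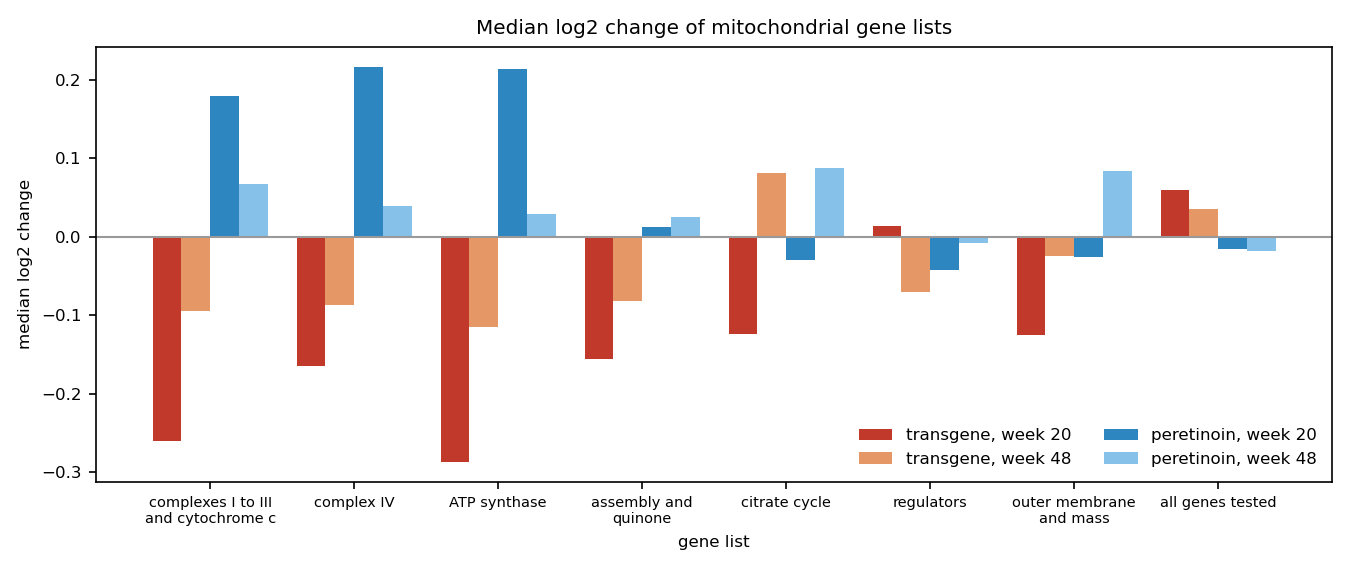
Bars give the median log2 change of the respiratory chain genes, of 6 lists of other mitochondrial genes and of all 13099 genes in 4 comparisons (transgene against wild type and peretinoin against basal diet, at each age), with no error because genes are not replicates. At week 20 the medians for complexes I to III with cytochrome c, complex IV and ATP synthase lie below 0 for the transgene and above 0 for peretinoin, and the 2 comparisons share the transgenic arrays.

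The second comparison set transgenic against wild-type liver at week 48, when tumours had been sampled. Of the 57 genes, 3 fell, 0 rose and 54 did not pass (6.58% of all genes fell and 14.2% rose), and the median log2 change was -0.10 beside 0.04 for all genes. With quantile normalisation 1 gene fell and 2 rose, and the median was -0.0041 beside 0.01. With median-centred arrays 1 gene fell, and the median was -0.014 beside 0.12. The complex I assembly factor Ndufaf4 had the largest change. Its signals were 2222, 2366, 2474 and 2398 in the 4 wild-type arrays and 1099.8, 1886, 1409, 1727 and 1469 in transgenic liver, so that the groups were apart. The change was -0.66 ± 0.16 (adjusted p = 0.00351), 1.58-fold lower, and held in each setting tried and without any single array.

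Sdha gave 15649, 14048, 13359.8 and 12638 in wild-type and 11888, 12422, 11572, 11947 and 11194 in transgenic liver at week 48. The groups did not overlap (-0.23 ± 0.08, adjusted p = 0.0365). Ndufa3, a small accessory subunit of complex I, changed by -0.28 ± 0.10 (adjusted p = 0.0354), and its wild-type arrays (16318 to 17813) overlapped its transgenic arrays (13352 to 16361). Both of these calls were weak. That of Sdha was kept only without wild-type replicate 4 or transgenic replicate 2, and that of Ndufa3 only without wild-type replicate 1 or transgenic replicate 4, with an adjusted p of up to 0.162 and 0.0892. Ndufa3 and Sdha were the genes called lower at both ages. With 1 array left out, 1 gene was called without wild-type replicate 2 or 3 or transgenic replicate 1 or 3, and 4 without transgenic replicate 4.

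Transgenic replicate 4 at week 48 was the array with the most muscle RNA, 7.88 log2 units above the median for the muscle markers and 5.70 for the acinar markers. Its respiratory chain level was 0.24, against -0.15 to -0.05 in the other 4 transgenic arrays and 0.00 to 0.09 in the wild type. Without this array the median change was -0.17, and without all 6 arrays of mixed tissue it was -0.18 and 5 genes fell. Of the ATP synthase list 2 genes fell, Atp5g3 (-0.30 ± 0.09) and Atp5h (-0.34 ± 0.12), and Atpif1, the inhibitor of ATP synthase, rose by 0.83 ± 0.17. Of complex IV, Cox6a1 fell (-0.32 ± 0.10). Idh2 (0.79) and Dlat (0.55) of the citrate cycle rose, and Ecsit, a complex I assembly factor, fell (-0.65 ± 0.14). Hepatocyte markers fell in 5 of 9 cases (median -0.33), while 9 of the 10 stellate and myofibroblast markers rose (median 1.91).

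Whether the transgene effect differed between the ages was tested directly. None of the 57 genes passed in this difference (0.275% of all genes did), while 11 of the 57 had an unadjusted p under 0.05 in limma, beside 13.2% of all genes. The difference, week 48 minus week 20, was above 0 in 49 genes, with a median of 0.13 beside -0.02 for all genes. The median was 0.072 without transgenic replicate 4 at week 48, 0.086 without wild-type replicate 4 at week 20, 0.066 with quantile normalisation and 0.34 with median-centred arrays (all genes 0.19). With the arrays of mixed tissue left out, the median was 0.093 and 0 of the 57 genes passed. The smallest p belonged to Ndufb6 (0.60 ± 0.16, adjusted p = 0.123), then Ndufa4l2 (-1.22 ± 0.35, adjusted p = 0.143) and Ndufaf5 (0.64 ± 0.22, adjusted p = 0.208). One gene passed with median-centred arrays, and 1 without wild-type replicate 2 at week 20.

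The tumours were set against transgenic liver of the same age in an unpaired fit. Same-numbered samples of these groups correlated at 0.077 to 0.29 in their deviations from group means. A paired fit of these groups alone was not run. Of the 57 genes 0 were called, as were 0 of all 13099 genes (0%), and 3 of the 57 had an unadjusted p under 0.05 in limma beside 8.21% of all genes. When the arrays of mixed tissue were left out, 4 of all 13099 genes were called and 0 of the 57. The median change was -0.04. It was 0.02 without transgenic replicate 4, -0.01 without tumour replicate 5, -0.072 without transgenic replicate 1 and -0.063 without tumour replicate 2. Ndufv1 gave 5826, 6342, 4535, 6687 and 4365 in tumours and 7291, 7111, 7037, 9045 and 7569.8 in transgenic liver. Every tumour value was lower, but the change of -0.47 ± 0.12 did not pass (adjusted p = 0.225). Ndufb8, a membrane arm subunit, changed by -0.40 ± 0.12 (adjusted p = 0.267) and Ndufs8 by -0.34 ± 0.14 (adjusted p = 0.515).

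Against wild-type liver of week 48, tumours had 11 respiratory chain genes that fell and 1 that rose, where 9.21% of all genes fell and 17.9% rose. The median change of the 57 genes was -0.11 beside 0.03, and it was -0.01 with quantile normalisation and -0.036 with median-centred arrays (all genes 0.0053 and 0.11). The count stayed at 11 falls and 1 rise without the arrays of mixed tissue, with a median of -0.10. This comparison shares the wild-type arrays with the one for the transgene at week 48. Of the 6 core subunits of complex I, 3 fell, Ndufv1, Ndufs8 and Ndufs3. Ndufv1 was 8644, 8433, 8630.5 and 8424 in the wild type, tightly grouped and above every tumour value (-0.64 ± 0.13, adjusted p = 0.000368), 1.56-fold lower in tumours. Ndufs8 fell from 14504 ± 2941 (SD, n = 4) to 9832 ± 1431 (n = 5), with 1 wild-type array inside the tumour range (-0.55 ± 0.15, adjusted p = 0.0064).

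Ndufb8 had signals of 8274, 7406, 8689.5 and 8037 in wild-type liver and 6092, 6156, 5312, 7099 and 4376 in tumours. All tumour values were lower (-0.50 ± 0.13, adjusted p = 0.0033). Ndufaf4 gave 1479.7, 1820.3, 1429, 1116 and 1534 in tumours, again below all wild-type arrays (-0.69 ± 0.16, adjusted p = 0.00162). Ndufa3, Ndufb3, Ndufa9, Ndufb11 and Sdha fell by 0.25 to 0.47. Uqcrc1, a core protein of complex III, fell by 0.33, with wild-type signals of 7321 to 9838 and tumour signals of 5977 to 6978 (adjusted p = 0.0435), a call kept only without wild-type replicate 4 or tumour replicate 2 among the 9 arrays, with an adjusted p of up to 0.181.

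Cycs, Cyc1 and Uqcrq did not pass in tumours, at -0.11 ± 0.10, -0.09 ± 0.10 and -0.14 ± 0.10. Ndufa4l2 rose (0.71 ± 0.26, adjusted p = 0.0371), with tumour signals of 137, 151, 139, 259 and 114 above all wild-type values of 67.6, 89.4, 97 and 101. That call was lost without wild-type replicate 1, 2 or 3 or tumour replicate 2 or 4, with an adjusted p of up to 0.127, and the call of Sdha without wild-type replicate 1 or tumour replicate 4, with up to 0.103. With median-centred arrays 1 gene rose and 4 fell, and with quantile normalisation 4 rose and 7 fell. Ndufv1, Ndufaf4, Ndufb8 and Ndufs8 fell in each setting tried. In the other lists, Atp5h (-0.39), Atp5g3 (-0.27) and Cox8a (-0.41) fell and Atpif1 rose (0.96 ± 0.17). Of the assembly list 7 of 31 genes fell, with the smallest p for Uqcc3 (-0.61), Ecsit (-0.62) and Surf1 (-0.41), while Idh2, Mdh2 and Ogdh of the citrate cycle rose by 0.43 to 0.64. In the same comparison 9 of the 10 stellate and myofibroblast markers rose (median 2.33) and 4 of the 9 hepatocyte markers fell (median -0.31).

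Peretinoin was compared with the basal diet in transgenic mice. At week 20, 4 of the 57 genes rose and 0 fell, where 1.64% of all genes rose and 1.24% fell. The median change was 0.18 beside -0.02 for all genes, and 40 of the 57 changes were above 0. The median was 0.10 without peretinoin replicate 2 and 0.093 with quantile normalisation. The genes were Ndufb7, Ndufc2 and Ndufb6 of the membrane arm of complex I and Uqcrb of complex III. Ndufc2 had signals of 13714, 16196, 14896, 13425 and 12864 with peretinoin, all above the 11151 to 11906 of the basal diet (0.30 ± 0.07, adjusted p = 0.0248). Ndufb6 gave 10038, 11384, 10678, 9404 and 8890.1 with peretinoin, all above the 6499 to 8556 of the basal diet (0.40 ± 0.11, adjusted p = 0.0426).

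Ndufb7, which faces the intermembrane space, gave 10507, 13047, 10283, 9219.5 and 8226 with peretinoin and 7041, 8684, 6592, 6530.2 and 7067 without. The groups overlapped through basal-diet replicate 2, and the change was 0.50 ± 0.12 (adjusted p = 0.0231). Uqcrb gave 36109, 46726, 38794, 38460.5 and 31933 with and 28157, 30937, 32574, 27531 and 32319 without peretinoin, with 1 peretinoin array inside the basal-diet range (0.33 ± 0.09, adjusted p = 0.0371). Cycs missed the threshold (0.32 ± 0.10, adjusted p = 0.0602) although its peretinoin signals of 18110.2 to 22328 were all above the basal-diet signals of 15056 to 18016. Sdha (-0.03 ± 0.08), Sdhc (-0.18 ± 0.14), Sdhd (-0.23 ± 0.09) and Uqcrfs1 (-0.24 ± 0.09) lay below 0, and none passed. For comparison, the transgene changes of Ndufc2, Ndufb6, Ndufb7 and Uqcrb at week 20 were -0.40, -0.60, -0.26 and -0.35. The transgenic basal-diet arrays enter both comparisons, with opposite signs.

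The 4 rises at week 20 were not stable. None was called with median-centred arrays, with the mean of a gene's probe sets or in a fit of the compared groups alone, and 2 rose and 2 other genes fell with quantile normalisation. Without 1 array the count ran from 0 to 9. It was 0 without basal-diet replicate 3 or peretinoin replicate 1, 2 or 3, 1 without basal-diet replicate 1 or 2, and 9 without peretinoin replicate 5. That last array held muscle RNA, 6.87 log2 units above the median, and without all arrays of mixed tissue 9 genes rose and the median change was 0.25. The 4 genes had 6 other probe sets, of which 4 lay above 0 and 0 were called. The other probe set of Ndufb6 and 1 of the 3 others of Ndufc2 lay below 0, at -0.03 ± 0.09 and -0.06 ± 0.09. The Actb 3'/5' ratio was 1.70 to 3.31 with peretinoin and 1.62 to 1.74 without, and 9 of the 10 stellate and myofibroblast markers lay below 0, with 1 called (median -0.45). All 4 lymphocyte markers tested lay below 0 and 0 were called (median -0.47). The part of these in the result was not tested. Of the other lists, Cox6b1 (0.37) and Cox7a2 (0.38) of complex IV, Atp5k (0.40) of ATP synthase and Vdac3 (0.32) of the outer membrane rose, and 0 genes of the assembly, citrate cycle and regulator lists were called.

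At week 48 peretinoin changed 0 of the 57 genes, where 0.725% of all genes were called in either direction. In limma 1 of the 57 had an unadjusted p under 0.05, beside 14% of all genes. The median change was 0.07 beside -0.02, and 0.02 with quantile normalisation and 0.16 with median-centred arrays (all genes 0.02 and 0.08). It was 0.13 without basal-diet replicate 4, and between 0.027 and 0.038 without basal-diet replicate 1 or 5 or peretinoin replicate 1 or 4. It was 0.10 without the arrays of mixed tissue, where again 0 of the 57 genes were called. The smallest p belonged to Ndufa1 (0.23 ± 0.10, adjusted p = 0.274), Uqcrc2 (0.21 ± 0.12, adjusted p = 0.421) and Ndufb11 (0.14 ± 0.09, adjusted p = 0.502). The difference of the peretinoin effect between ages passed in 0 of the 57 genes (0.679% of all genes), with 4 at an unadjusted p under 0.05 beside 13.6% of all genes. Its median was -0.10, and -0.17 without the arrays of mixed tissue, where again 0 of the 57 passed. Ndufb6 (-0.48 ± 0.16, adjusted p = 0.138), Ndufb7 (-0.48 ± 0.17, adjusted p = 0.18) and Ndufc2 (-0.23 ± 0.10, adjusted p = 0.329) had the smallest p.

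The ages were compared within each genotype. In wild-type liver 1 gene was higher and 1 lower at week 48 than at week 20 (2.41% and 4.47% of all genes), with a median change of -0.08. The median was -0.02 without replicate 4 of week 20, -0.12 without replicate 1, -0.13 without replicate 2 and -0.16 with median-centred arrays (all genes -0.11). Sdha was higher (0.26 ± 0.08, adjusted p = 0.0468) and Ndufa5, an accessory subunit of the matrix arm, was lower, at 7340.0, 6919, 8512, 8529 and 6924 at week 20 and 5028, 5355, 6650.5 and 5787 at week 48 (-0.42 ± 0.13, adjusted p = 0.0427). Both stood near the threshold. The call of Sdha was kept only without wild-type replicate 5 at week 20 or replicate 4 at week 48, and that of Ndufa5 only without wild-type replicate 5 at week 20 or replicate 3 at week 48, with adjusted p of up to 0.172 and 0.127. Without all 6 arrays of mixed tissue 1 gene was called. The Actb 3'/5' ratio ran from 1.81 to 2.16 at week 20 and from 1.39 to 1.71 at week 48, without overlap. The Gapdh 3'/5' ratio overlapped, at 0.75 to 0.85 at week 20 and 0.69 to 0.79 at week 48. The part of RNA quality was not tested.

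In transgenic liver 7 genes were higher and 2 lower at week 48 than at week 20 (5.99% and 9.76% of all genes). The Actb 3'/5' ratio ran from 1.62 to 1.74 at week 20 and from 1.30 to 1.57 at week 48, again without overlap. The Gapdh 3'/5' ratio overlapped, at 0.74 to 0.78 at week 20 and 0.72 to 0.75 at week 48. In the same comparison 3 of the 10 stellate and myofibroblast markers fell (median -0.53). The part of these was not tested. Ndufs5, an accessory subunit on the intermembrane side of complex I, had the smallest p. Its signals were 4397, 4956, 4842, 4815 and 5609 at week 20 and 7151, 6959, 7481, 9024 and 6762 at week 48. The ages were well apart (0.60 ± 0.10, adjusted p = 0.000255), 1.51-fold higher. In wild-type liver the same gene changed by 0.25 ± 0.11 (adjusted p = 0.174). A second bright probe set, shared by Ndufs5 and its pseudogene, did not pass for age in transgenic liver. It gave 0.13 ± 0.12 (adjusted p = 0.508) in a limma fit over all probe sets kept.

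Cycs was 20224, 21486, 18969, 26598 and 21270.4 at week 48, all above the week 20 transgenic arrays (0.41 ± 0.10, adjusted p = 0.00373). Ndufb6 (0.43 ± 0.11), Ndufa8 (0.33 ± 0.09), Ndufaf5 (0.65 ± 0.15), Sdha (0.25 ± 0.08) and Ndufa9 (0.23 ± 0.08) were higher as well. Sdha lost its call without transgenic replicate 1 at week 20 or replicate 2 at week 48, with an adjusted p of up to 0.062. Averaged over its probe sets, the Sdha log2 change was -0.00173, not past the threshold. Ndufaf4 (-0.65 ± 0.15, adjusted p = 0.00408) and Ndufa4l2 were lower. Ndufa4l2 went from 266 to 373 at week 20 to 98.6, 69.1, 123, 223 and 102 at week 48, below all week 20 values (-1.24 ± 0.24, adjusted p = 0.000884). Without the arrays of mixed tissue 4 genes were higher and 2 lower, and the median change went from 0.07 to 0.01. It turned to -0.012 without transgenic replicate 4 at week 48 alone, and was 0.036 without replicate 4 at week 20, 0.10 without replicate 1 at week 48 and 0.0097 with quantile normalisation. In the regulator list 6 of 18 genes fell with age in transgenic liver, with the smallest p for Ppara (-1.10), Pprc1 (-0.67) and Hif1a (-0.37), and Dld, Cs and Dlat of the citrate cycle rose by 0.57 to 0.74.

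Across all 7 groups, 31 of the 57 genes were called in at least 1 of the 10 comparisons and 26 in none. Of all genes tested, 50.6% were called in at least 1. Ndufs1, Ndufv2 and Ndufs7 were among the 26 respiratory chain genes called in none. Group mean signals of Ndufs1 ran from 3408 ± 206 in peretinoin-fed transgenic liver at week 20 to 4581 ± 195 in peretinoin-fed transgenic liver at week 48 (SD). Ndufv2 ran from 8781 ± 547 in peretinoin-fed transgenic liver at week 20 to 11268 ± 608 in the wild type at week 48, and Ndufs7 from 5061 ± 1009.9 in tumours to 6432 ± 989 in the wild type at week 20. The 7 groups of each of these core subunits of complex I overlapped their neighbours in this order within their SDs, except that Ndufs1 and Ndufv2 were lowest in the peretinoin group of week 20 by more than its SD.

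In complex II, Sdhc ran from 7349.6 ± 633 in peretinoin-fed transgenic liver at week 20 to 8891 ± 888 in peretinoin-fed transgenic liver at week 48, while single wild-type arrays at week 20 gave 4977 to 11886. Sdhb ran from 11033 ± 548 in transgenic liver at week 20 to 13851 ± 843 in the wild type at week 48, and Sdhd from 5752 ± 542 in peretinoin-fed transgenic liver at week 20 to 7232 ± 686 in the wild type at week 20. None of these 3 was called in any comparison, whereas Sdha, the fourth subunit, was called in 5. Each of these Sdha calls was lost in at least 2 of the fits with 1 array left out. With quantile normalisation only the Sdha call for age in wild type was kept. Of complex III, Uqcrc2 ran from 8434 ± 526 in peretinoin-fed transgenic liver at week 20 to 10514 ± 776 in the wild type at week 20 and Uqcrfs1 from 8898 ± 617 in peretinoin-fed transgenic liver at week 20 to 11622 ± 1660.3 in the wild type at week 20, again without a call. Ndufa4 and Ndufab1 ran from 10331 ± 862 in peretinoin-fed transgenic liver at week 48 to 12381 ± 775 in the wild type at week 20 and from 6519 ± 633 in transgenic liver at week 20 to 7896 ± 1316 in the wild type at week 20.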

How the data were processed

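Total RNA from 34 mouse liver and tumour samples was labelled as biotinylated cRNA, per the labels' protocols. The authors deposited MAS5 signal intensities on a linear scale, per the submitters' processing notes (MAS5 version not given in the sources used here). The 2% trimmed mean of every array is close to 500.0, so the arrays had been scaled to one level before deposit, and no further scaling was applied. Of 45101 probe sets, 64 are controls, 34945 carry 1 gene symbol in the platform annotation, which can be old, and 932 carry several and named no gene. The brightest probe set of each gene, by its mean over the arrays, was taken, and the upper 60% of probe sets by mean signal were tested.

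The signals were analysed as log2(signal + 16) in 1 limma fit (version 3.58.1, R 4.3.3) of the 7 groups with an intensity trend and Benjamini-Hochberg adjustment over 13099 genes. The offset understates changes of low genes. Genes were named in the text when called (up to 5 with the smallest p per direction and comparison) or when in a panel of chain components, and others only as counts or in ranges. The genes, lists and tests were chosen with earlier results of these data known. The alternatives were an offset of 1 or 64, median-centred arrays, quantile normalisation, the upper 40% of probe sets or no filter, the mean of a gene's probe sets, the compared groups alone, no intensity trend, the replicate number as a block, no arrays with transcripts of another tissue, and each array left out in turn. Promoters are RefSeq windows of build GRCm38.p6. No 2 arrays were near duplicates (highest correlation 0.977). The fit was tested on simulated data.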

Additional observations from a re-analysis of the deposited data

Results flagged for a closer look

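In 9 of the 161 sets of 4 or 5 arrays examined for the genes named here, 1 array stood far from the others by Dixon's test. Chance gives about 1 in 20. In wild-type liver at week 48, 1 array had a Ndufa9 signal of 11260.0 against 9515.9 to 9763.3 in the others, and 1 had a Ndufs5 signal of 7836.2 against 7380.8 to 7384.5. In transgenic liver at week 20, single arrays stood apart for Ndufa4l2 (373.1 against 266.3 to 293.3), Sdha (9167.5 against 10008.3 to 10225.4) and Ndufb7 (8684.4 against 6530.2 to 7066.7). In transgenic liver at week 48 the mean level of the respiratory chain genes was 0.24 in replicate 4 against -0.15 to -0.05 in the other arrays, and Ndufb8 was 9773.1 in 1 array against 6838.3 to 7422.8. Replicate 4 is the array with transcripts of muscle and pancreas, and their part in its level was not tested. In tumours 1 array had a Uqcrq signal of 10694.4 against 11644.2 to 11949.6, and in the peretinoin group of week 20 1 array had a Ndufa8 signal of 8219.8 against 6177.2 to 6616.2.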

How the results depend on the processing

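For the transgene at week 20, quantile normalisation took the count of called genes from 23 to 11 and the median change from -0.26 to -0.081. Median centring took the median to -0.39. The median of all genes was 0.06, and it went to -0.03 with quantile normalisation and to -0.07 with centring. For the transgene at week 48 the count of 3 became 1 with no filter, median centring, the mean of a gene's probe sets or no intensity trend, and 5 with the compared groups alone or without arrays of mixed tissue. It ran from 1 to 4 with 1 array left out. Quantile normalisation kept 1 of the 3 falls. For tumours against wild type, median centring took the count from 12 to 5. For peretinoin at week 20 the count of 4 became 2 with no filter or no intensity trend, 0 with median centring, the mean of probe sets or the compared groups alone, and 9 without arrays of mixed tissue, and it ran from 0 to 9 with 1 array left out. For age in wild type the count of 2 became 0 with no filter, the compared groups alone or no intensity trend, and 1 with median centring, the mean of probe sets, the replicate block or without arrays of mixed tissue (0 to 2 with 1 array left out). For age in transgenic liver median centring moved the median from 0.07 to 0.19, and that of all genes from -0.04 to 0.08. For the difference of the transgene effect, median centring took the count from 0 to 1 (0 to 1 with 1 array left out). It took the median from 0.13 to 0.34, and that of all genes from -0.02 to 0.19. The age change of Sdha in transgenic liver turned to -0.00173 with the mean of its probe sets. The cause of these differences was not tested. Same-numbered samples were not treated as pairs, because in no comparison did all pairs correlate above 0.1 in their deviations. The correlations ran from -0.04 to 0.11 for the transgene at week 20 (1 of 5 pairs above 0.1) and from 0.0023 to 0.43 at week 48 (3 of 4). For tumours against transgenic liver they ran from 0.077 to 0.29 (4 of 5). Pairs that correlated best with their own number were 4 of 5 for tumours against transgenic liver. They were 3 of 4 for the transgene at week 48 and for age in wild type, and 3 of 5 for age in transgenic liver. In the other comparisons they were 2 of 4 (tumours against wild type), 2 of 5 (peretinoin, week 48), 1 of 5 (transgene, week 20) and 0 of 5 (peretinoin, week 20). Whether same-numbered samples share an origin was not tested, and no paired fit of tumours and transgenic liver alone was run. The replicate block fits 1 effect per number over all 7 groups, so it cannot decide whether tumours and livers are pairs. With the replicate number as a block, 24 genes were called for the transgene at week 20, 2 at week 48, 10 for tumours against wild type, 0 for tumours against transgenic liver, 4 for peretinoin at week 20, 11 for age in transgenic liver and 1 for age in wild type. Ndufa4l2, with signals of 67.6 to 373.1 in the groups given, was the dimmest of the genes called.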

Other observations

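A few regulators and assembly factors of the chain differed with age in wild-type liver, where 2.41% of all genes were higher and 4.47% lower at week 48. Of 18 regulators tested 14 did not pass. Ppargc1a was higher at week 48 than at week 20 (1.76 ± 0.46, limma with Benjamini-Hochberg adjusted p = 0.018). Esrra, an oestrogen-related receptor (-0.71 ± 0.19), Tfam, which packages and transcribes mitochondrial DNA (-0.38 ± 0.10), and Hif1a (-0.43 ± 0.10) were lower. Of 31 assembly and ubiquinone genes 28 did not pass and 3 were lower, the complex II factors Sdhaf1 (-0.79 ± 0.16) and Sdhaf3 (-0.37 ± 0.10) and the complex IV factor Coa5 (-0.41 ± 0.09). Cox7a2l, which links respiratory complexes, was lower by 0.44 on the log2 scale (adjusted p = 0.00747), and 0 of 16 ATP synthase genes passed. The same wild-type arrays of week 20 enter the transgene comparison of that age, where Ppargc1a stood at 1.64 ± 0.43.

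Probe sets that carry several symbols were left out of the 57 genes, although some hold copies of complex I genes. In a limma fit over all probe sets kept, the one shared by Ndufab1 and its pseudogene was at -0.47 ± 0.12 for the transgene at week 20 (adjusted p = 0.00417). One of the probe sets shared by Ndufb4, Ndufb4b and Ndufb4c was at -0.31 ± 0.10 (adjusted p = 0.0287), and the other at -0.17 ± 0.10 (adjusted p = 0.263). The probe set of Ndufs6 and Ndufs6b was at -0.24 ± 0.11 (adjusted p = 0.135), and the brighter one of Ndufa11 and Ndufa11b at -0.31 ± 0.12 (adjusted p = 0.0743). The probe set of Ndufs5 and its pseudogene was at -0.22 ± 0.12 (adjusted p = 0.226), whereas the probe set of Ndufs5 alone was called lower. Such probe sets cannot tell the copies apart.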
